A study of Mus musculus with 18 samples.

Results

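The genes of the collagen chains were followed in 18 RNA sequencing libraries of mouse bone marrow-derived macrophages given RANKL for 0, 1 or 3 days. A gene was taken when its symbol had the form of a collagen chain (Col, a type number, a, a chain number) and its counts summed to at least 50 over the 18 libraries. Of 34745 genes in the table, 44 had such a symbol and 35 reached 50 counts. The other 9 (Col17a1, Col9a2, Col9a1, Col22a1, Col13a1, Col26a1, Col6a6, Col4a3 and Col4a4) held 3 to 15 counts each. The filter on low counts passed 34 of the 35, and Col25a1, with 52 counts in all, was not tested. Of the 34, 30 passed the filter without the day 3 libraries, whereas Col10a1, Col4a6, Col6a5 and Col8a2 passed only through them.

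Collagens are proteins built from 3 chains wound around each other, and each kind of chain has its own gene. Types I, II, III, V, XI, XXIV and XXVII form fibrils, type IV forms the sheet of basement membranes, type VI forms beaded filaments, and types VIII and X form networks of short chains. Types IX, XII, XIV, XVI, XIX and XX sit on the surface of fibrils, types XV and XVIII are found near basement membranes, type VII anchors epithelium to the matrix below, and types XXIII and XXV span the cell membrane. In bone marrow, type I collagen is made mainly by osteoblasts, fibroblasts and other stromal cells, and osteoclasts, which arise from macrophages, digest it.

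The study asked how the zinc finger gene Zmat1 bears on osteoclast formation. Cells came from Zmat1-/- mice, a knockout in the whole animal (label KO), and from wild-type littermates (label WT), aged 4 to 8 weeks. All cultures had received M-CSF, the growth factor of macrophages, before RANKL. RANKL, the cytokine that drives osteoclast formation, was given for 0, 1 or 3 days, together with M-CSF per the paper. The 6 groups of label and day held 3 libraries each, and neither separate mice nor separate cultures were stated for them, so p-values measure the spread between these libraries, which may be technical.

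Total counts ran from 13789775 to 17559958 per library. Zmat1 itself was counted in every library, at 2.19 to 7.50 CPM (counts scaled to a common library size) in those labelled WT and 3.49 to 7.61 CPM in those labelled KO (log2 fold change 0.42 over the 3 days, adjusted p = 0.354, edgeR quasi-likelihood test). The study genotyped its mice by PCR and reported qPCR of Zmat1 mRNA in bone marrow-derived macrophages of both genotypes. Counts per gene cannot show whether a deleted part is missing, and the deleted part is not given in the sources used here. The groups are therefore called the libraries labelled WT and KO throughout. WT day 1 held 2 libraries numbered 1, and the one whose title has a double hyphen is called 1b here. A double hyphen also stood in the titles of WT day 0 library 1, KO day 0 library 2 and KO day 1 libraries 1 and 2, and in none of day 3. The culture markers moved strongly between days: 6 macrophage markers summed to 28337 to 56412 CPM on day 0 and 6349 to 12819 CPM on day 3 in the libraries labelled WT, and 8 osteoclast markers summed to 104 to 522 CPM and then 15238 to 22414 CPM. With the label KO the macrophage sums were 32780 to 59055 and then 8511 to 17112 CPM, and the osteoclast sums 524 to 815 and then 7844 to 17021 CPM.

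The collagen chains took between 0.0156% of all counts (WT day 0 library 1) and 3.94% (KO day 3 library 2). In the libraries labelled WT the share was 0.0156%, 0.0655% and 0.553% on day 0, 0.408%, 0.0328% (library 1b) and 0.344% on day 1, and 1.58%, 2.02% and 1.83% on day 3. In those labelled KO it was 0.424%, 0.122% and 0.447% on day 0, 0.404%, 0.281% and 1.09% on day 1, and 2.83%, 3.94% and 3.76% on day 3. Day 3 stood above days 0 and 1 in both labels without overlap, and the libraries of day 0 differed among themselves far more than those of day 3. In every group of days 0 and 1 the libraries with a double hyphen in the title held the lowest shares. Day 3 had no such title, so title style and day cannot be fully told apart. Pooled over the 18 libraries, with no correction for length and with most of the counts from day 3, Col1a1 held 34.2% of all collagen counts, Col1a2 27.2% and Col3a1 7.06%. The 12 chains with the most counts together held 95.3%. In the poorest library, WT day 0 library 1, Col18a1 had 391 counts, more than Col1a1 (354). The type I chains made up 31.0% of collagen counts in the poorest library (WT day 0 library 1) and 64.4% in WT day 3 library 1.

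**Figure D1:**
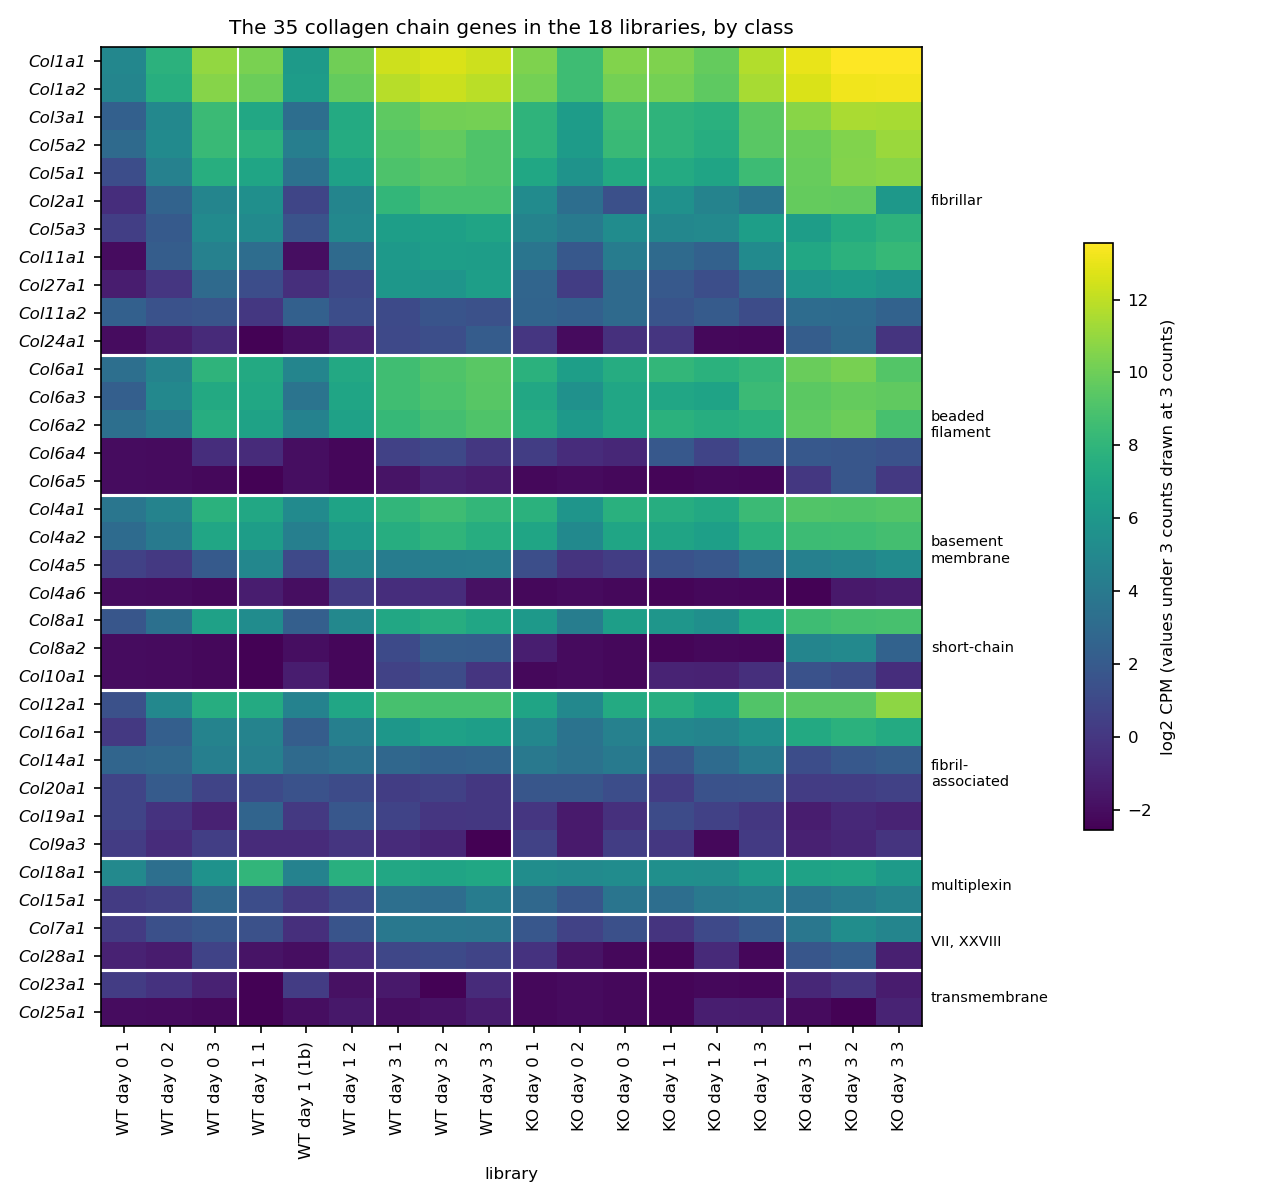
Level of each of the 35 collagen chain genes (vertical axis, ordered by class) in each of the 18 libraries (horizontal axis), coloured by log2 CPM, with values under 3 counts drawn at 3 counts. The 6 libraries of day 3 are the brightest columns for Col1a1, Col1a2 and Col3a1, and the lower part of the fibril-associated block, with Col14a1 and Col20a1, does not follow them.

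Levels of single genes are set side by side below per length, as the deposited FPKM (fragments scaled by gene length and library size). In the libraries labelled KO on day 3, Col1a1 was at 1748 ± 305 FPKM (SD, n = 3), Col1a2 at 603 ± 119, Col3a1 at 257 ± 69.0, Col6a1 at 232 ± 84.1, Col5a1 at 173 ± 46.7 and Col5a2 at 173 ± 63.1. Next came Col6a2 at 98.2 ± 36.4, Col8a1 at 96.0 ± 8.01, Col4a1 at 93.4 ± 2.09 and Col2a1 at 92.3 ± 71.4. Neighbours from Col3a1 to Col5a2, and from Col6a2 to Col2a1, did not differ beyond their spread. On that scale fibril-forming chains were 60.8% ± 18.4 of all collagen FPKM on day 0 and 78.7% ± 2.60 on day 3 in the libraries labelled WT (SD, n = 3), and 68.5% ± 3.69 and 80.0% ± 3.23 in those labelled KO. The basement membrane chains were 10.3% ± 4.52 and 4.38% ± 0.40, and 8.83% ± 0.67 and 4.25% ± 0.71, in the same order.

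Type I collagen is a trimer of 2 chains of Col1a1 and 1 of Col1a2. The level of Col1a1 was 2.13 to 3.29 times that of Col1a2 in FPKM, with a median of 2.85 over the 18 libraries. The FPKM of a gene rested on 1 fixed length, 6934 bases for Col1a1 and 16209 for Col1a2, which for Col1a2 is far longer than its longest coding transcript of 5348 bases. With the longest coding transcript of each gene in place of those lengths the median ratio was 1.10, so the ratio depends on the length used, while its narrow range between libraries does not. The pairs that share a locus kept close ratios too, 1.40 to 1.72 for Col4a1 over Col4a2 and 1.88 to 2.67 for Col6a1 over Col6a2.

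**Figure D2:**
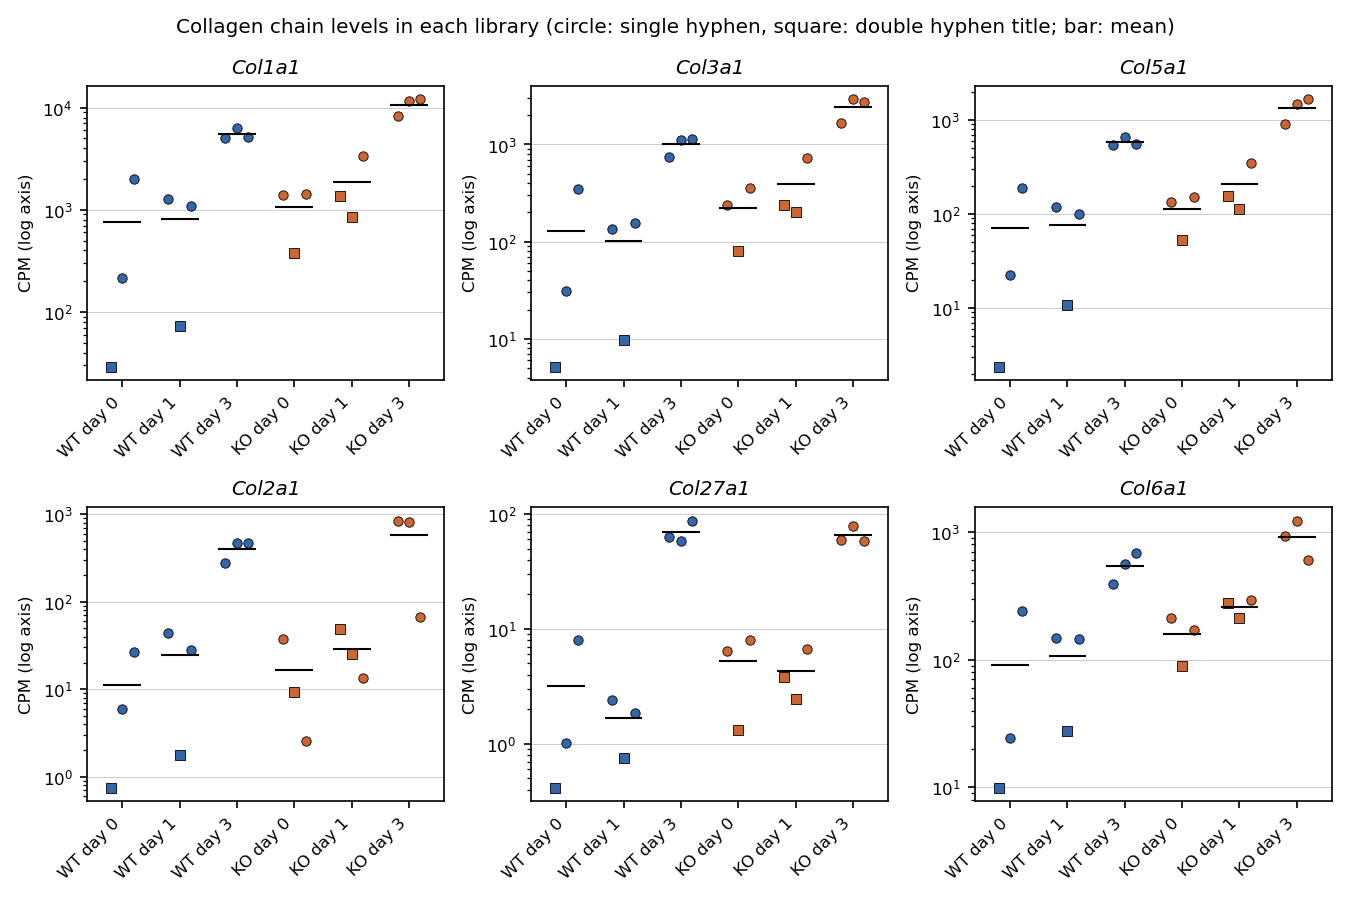
Level of 6 fibril-forming and beaded filament chain genes in CPM on a log axis, in each library of the 6 groups of label and day, with a bar at the group mean, circles for titles with a single hyphen and squares for those with a double hyphen. All 6 libraries of day 3 lie above every library of day 0 in each panel, and the lowest of them for Col2a1, KO day 3 library 3 (66.2 CPM), is close to the highest of day 0 (37.7 CPM).

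Promoter sequences (RefSeq, 250 bases before to 50 after the start) were found for 29 of the 35 genes, 31 entries in all, and not for Col1a1, Col2a1, Col5a2, Col12a1, Col14a1 and Col9a3. The 120 bases before the start are shown for 5 chains that rose in both labels by day 3 and come from 3 classes: the fibril-forming Col3a1, Col5a1 and Col27a1, the anchoring Col7a1 and the short-chain Col10a1. Of these, Col10a1 entered the test only through the day 3 libraries. Capitals mark the motif CCAAT, the motif TATAAA or the motif GGGCGG on either strand. The positions are on GRCm38.p6, all on the plus strand, and no annotated exon lies in them. Col3a1 is at chr1:45311418-45311537, Col5a1 at chr2:27886305-27886424, Col27a1 at chr4:63215292-63215411, Col7a1 at chr9:108953466-108953585 and Col10a1 at chr10:34389861-34389980.
Col3a1: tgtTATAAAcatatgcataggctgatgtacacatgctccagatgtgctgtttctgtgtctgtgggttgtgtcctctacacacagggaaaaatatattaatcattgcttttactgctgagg
Col5a1: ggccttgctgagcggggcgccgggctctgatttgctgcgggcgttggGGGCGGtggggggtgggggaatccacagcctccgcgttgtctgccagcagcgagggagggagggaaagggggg
Col27a1: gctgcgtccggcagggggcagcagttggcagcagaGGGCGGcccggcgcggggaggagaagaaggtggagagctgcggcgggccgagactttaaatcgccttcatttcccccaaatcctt
Col7a1: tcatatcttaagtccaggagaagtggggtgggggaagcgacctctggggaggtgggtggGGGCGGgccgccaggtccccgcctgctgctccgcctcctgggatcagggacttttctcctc
Col10a1: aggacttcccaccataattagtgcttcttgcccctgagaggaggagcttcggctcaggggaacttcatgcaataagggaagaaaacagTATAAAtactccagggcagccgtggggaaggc

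In the 250 bases before the start, on both strands, GGGCGG (the core that Sp1-type factors read) was present in 20 of the 31 entries (64.5%) and in 32.7% of 32851 promoters of mouse genes. CCAAT was present in 11 (35.5%, against 33.8% of all promoters) and TATAAA in 3 (9.68%, against 12.4%), those of Col10a1, Col11a2 and Col3a1. AACCACA, a form of the site that Runx factors read, was in none of the 31 and in 4.4% of all promoters. No motif contains another, though neighbouring matches can share bases. These shares are descriptions.

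Most collagen chains rose between day 0 and day 3 in both labels. In the libraries labelled WT 21 of the 34 rose and 0 fell (adjusted p under 0.05, edgeR quasi-likelihood test), where 23.7% of the 14241 genes tested rose and 26.5% fell. In those labelled KO 24 rose and 2 fell (Col14a1 and Col20a1), where 20.2% of all genes rose and 22.3% fell. The median log2 fold change of the 34 was 2.65 and 2.85, against -0.03 and -0.01 over all genes tested. Of the 30 chains that pass the filter without the day 3 libraries, 18 rose and 0 fell with the label WT (median 2.58), and 21 rose and 2 fell with the label KO (median 2.73). The 3 libraries of day 3 all lay above the 3 of day 0 for 28 chains with the label WT, against 31.5% of all genes, and for 25 with the label KO, against 29.4%. These were counted over all 34 chains. They include Col10a1, Col4a6, Col6a5 and Col8a2, which entered only through the day 3 libraries, so the counts are descriptions. Among the class counts that follow, Col6a5 (beaded filament) and Col8a2 and Col10a1 (short-chain network) entered the test only through the day 3 libraries. Col8a2 and Col10a1 were the short-chain network chains called with the label WT. By class, the number that rose in the libraries labelled WT and KO was 8 and 10 of 11 fibril-forming chains, 5 and 5 of 5 beaded filament chains, 2 and 2 of 4 basement membrane chains and 2 and 3 of 3 short-chain network chains. It was 1 and 2 of 6 fibril-associated chains, 2 and 0 of 2 chains of types XV and XVIII, 1 and 2 of the pair Col7a1 and Col28a1, and 0 and 0 of 1 membrane chain, Col23a1. In both labels 19 chains rose, 16 of them among those 30, and 6 were called in neither (Col11a2, Col19a1, Col23a1, Col4a1, Col4a6 and Col9a3).

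These counts depend on single libraries. The share of all genes called was not taken under these alternatives, so whether the changes were particular to collagen chains was not tested. With the label WT, 8 chains were called without day 0 library 2, 11 without day 0 library 1, 12 without day 3 library 3 and 9 in a fit of those 2 groups alone. Among the KO comparisons 10 were called without day 0 library 2, 14 without day 0 library 1 and also without library 3, 13 without day 3 library 2, 17 without day 3 library 3, and 11 without any library numbered 3. Among libraries with a single hyphen in the title, 22 and 24 were called. For 7 chains (Col10a1, Col16a1, Col27a1, Col2a1, Col4a5, Col7a1 and Col8a2) the call in both labels held under every alternative in which they were tested. Of these, Col10a1 and Col8a2 entered the test only through the day 3 libraries, in which they are high.

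**Figure D3:**
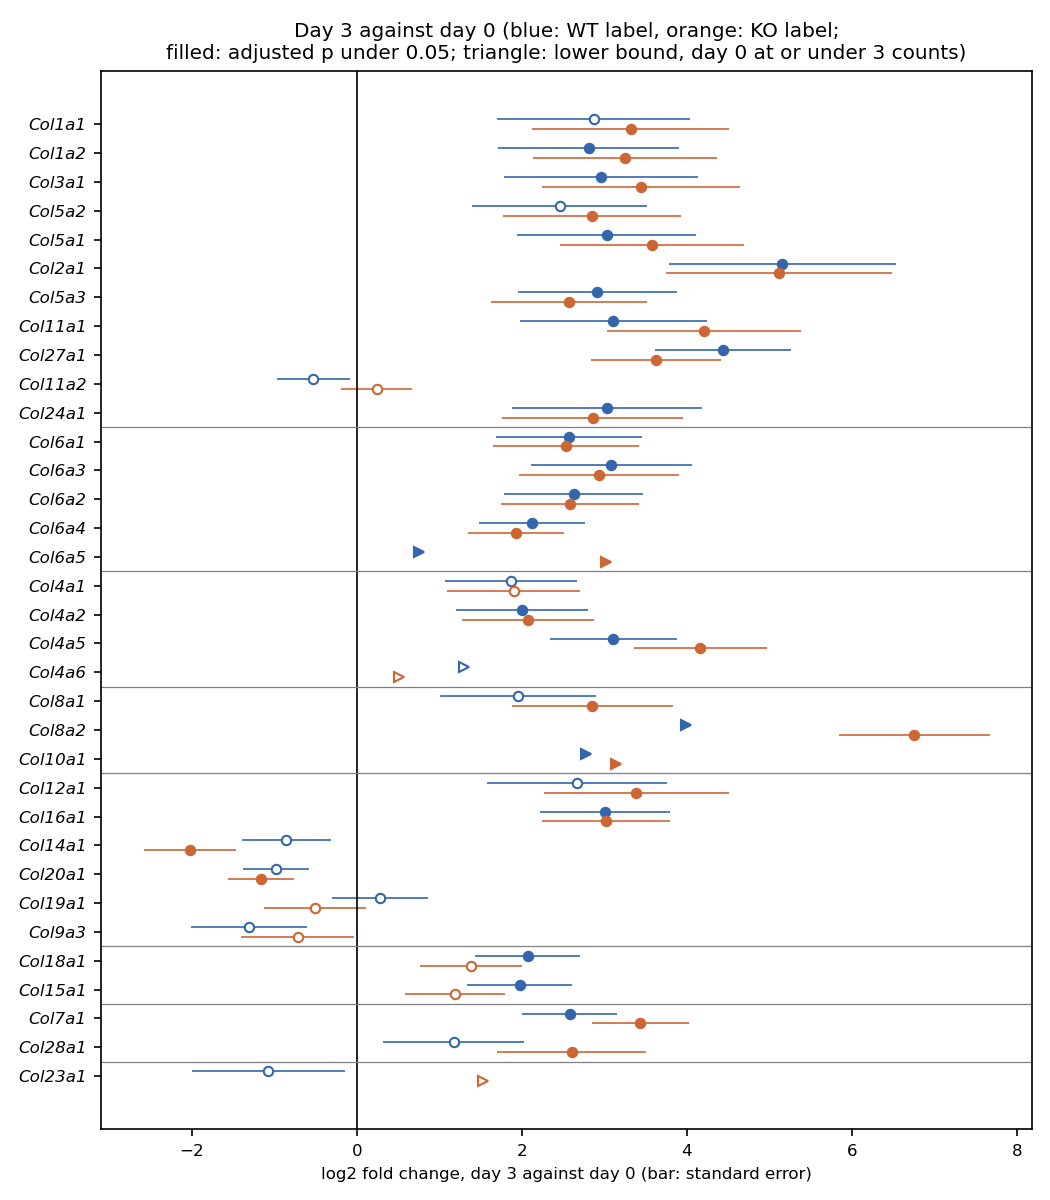
Log2 fold change of day 3 against day 0 for the 34 tested chains, by class, in the libraries labelled WT (blue) and KO (orange), with bars for the standard error, filled symbols for adjusted p under 0.05, and triangles for lower bounds where day 0 held 3 counts or fewer. Many chains lie between 2 and 4, with Col2a1 at 5.16 and 5.12 above them and Col14a1 (-0.85 and -2.02) and Col20a1 (-0.98 and -1.16) below 0.

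Col1a1 encodes the main chain of type I collagen, the bulk protein of bone. It was at 29.2, 217 and 2011 CPM in the libraries labelled WT on day 0 and at 5096, 6285 and 5106 on day 3. In the libraries labelled KO it was at 1394, 380 and 1443 CPM on day 0 and at 8273, 11748 and 12061 on day 3. The groups did not overlap, but the WT libraries of day 0 lay far apart. The log2 fold change of 2.87 (SE 1.17) did not pass with the label WT (adjusted p = 0.053), whereas that of 3.32 (SE 1.19) did with the label KO (adjusted p = 0.0363). The KO call of Col1a1 was lost when any of the 6 KO libraries of these days was left out (adjusted p up to 0.113). Without WT day 0 library 3 the WT value was 5.51 (adjusted p = 0.00233), and among single-hyphen titles it was 2.37 (adjusted p = 0.0187). Col1a2, its partner chain, was at 27.2, 187 and 1556 CPM and then 3622, 4960 and 3811 with the label WT, and at 1150, 377 and 1190 and then 6456, 9605 and 9813 with the label KO. Every library of day 3 lay above those of day 0, and Col1a2 rose in both labels, by 2.81 (SE 1.10, adjusted p = 0.0453) and 3.25 (SE 1.12, adjusted p = 0.0302). Col3a1, the chain of the type III fibrils that run beside type I, was at 5.19, 31.4 and 350 CPM and then 740, 1117 and 1151 with the label WT, and at 237, 79.9 and 355 and then 1650, 2911 and 2746 with the label KO. It rose by 2.96 and 3.44 (adjusted p = 0.0483 and 0.0321). The calls of Col1a2 and Col3a1 were likewise lost with the label KO when any of the 6 libraries but day 3 library 1 was left out, and with the label WT when any but day 0 library 3 was (adjusted p up to 0.138).

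Chains of types V and XI, which set fibril width from within, moved together except for 1. Col5a1 was at 2.39, 22.4 and 189 CPM and then 536, 655 and 553 with the label WT, and 134, 52.6 and 153 and then 897, 1490 and 1655 with the label KO. It rose by 3.03 and 3.57 (adjusted p = 0.032 and 0.0194), with no overlap between days. Col5a2 rose in the libraries labelled KO (2.85, adjusted p = 0.0448) and had a value of 2.46 with adjusted p = 0.0653 in those labelled WT. Col5a3 rose by 2.91 and 2.57, and Col11a1 by 3.11 and 4.20 (adjusted p = 0.0335 and 0.011). Col11a1 was at 0.165, 4.49 and 23.3 CPM and then 71.5, 87.8 and 84.0 with the label WT, and at 13.3, 3.69 and 18.6 and then 135, 221 and 301 with the label KO. Col11a2, another type XI chain, stayed low, at 2.86 to 5.19 CPM on day 0 and 2.06 to 3.12 on day 3 with the label WT, and its values of -0.53 and 0.24 were not called.

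Col2a1, the chain of type II collagen, the main fibril of cartilage, was at 0.742, 5.96 and 26.9 CPM on day 0 and at 279, 465 and 463 on day 3 in the libraries labelled WT, a log2 fold change of 5.16 (SE 1.38, adjusted p = 0.00669). In those labelled KO it was at 37.7, 9.38 and 2.55 CPM and then at 841, 820 and 66.2, a change of 5.12 (SE 1.37, adjusted p = 0.00862). In every library labelled KO and numbered 3 it was low against the other fibrillar chains, at 0.169%, 0.375% and 0.526% of the FPKM of Col1a1 on days 0, 1 and 3, while the other 15 libraries had 1.28% to 9.73%. Aggrecan (Acan), the defining proteoglycan of cartilage, was at 0.96 CPM or less in all libraries. Sox9, the regulator of chondrocyte genes, rose with the label WT (adjusted p = 0.000531), but from only 0, 2 and 3 counts on day 0, so the size of that rise was not measured. With the label KO it rose by 1.91 (adjusted p = 0.0191). Of the 4 tested chondrocyte markers only Sox9 rose, with 1 lower. The 5 listed markers summed to 2.39 to 6.58 CPM on day 0 and 3.56 to 4.10 on day 3 with the label WT, and to 3.08 to 4.95 and then 6.80 to 9.67 with the label KO. Their part in the Col2a1 values was not tested. Col27a1, a fibril-forming chain of cartilage and its calcified zone, was at 0.412, 1.01 and 8.08 CPM and then 63.3, 58.3 and 87.1 with the label WT, and at 6.42, 1.31 and 8.01 and then 58.8, 78.9 and 57.8 with the label KO. It rose by 4.43 (SE 0.825, adjusted p = 0.000606) and 3.63 (SE 0.788, adjusted p = 0.0025), and its day 3 levels overlapped between the labels. Col24a1, at 7.77 CPM or less throughout, rose by 3.03 and 2.86 (adjusted p = 0.0405 and 0.048). With the replicate number as a block within each label, Col24a1 lost its KO call (adjusted p = 0.0694), although the numbers set apart only the KO libraries numbered 3.

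Of the 5 type VI chains, Col6a1, Col6a2, Col6a3 and Col6a4 rose in both labels, and Col6a5 passed the filter on low counts only through the day 3 libraries. Col6a1 was at 9.89, 24.5 and 240 CPM on day 0 and at 392, 560 and 685 on day 3 with the label WT, and at 214, 89.2 and 172 and then 926, 1221 and 600 with the label KO, an increase of 2.57 and 2.53 (adjusted p = 0.026 and 0.0321). Col6a2 and Col6a3, which with Col6a1 form the common type VI protein, rose by 2.63 and 2.58 and by 3.08 and 2.93. Col6a3 was at 4.86, 30.6 and 150 CPM and then 384, 517 and 673 with the label WT, and at 138, 47.4 and 125 and then 730, 861 and 779 with the label KO, with no overlap between days. Col6a4 and Col6a5 are long alternatives to Col6a3. Col6a4, at 0.0774 to 0.715 CPM on day 0 and 1.01 to 1.88 on day 3 with the label WT, rose by 2.12 (adjusted p = 0.0132), and by 1.93 (adjusted p = 0.0165) with the label KO. Col6a5 was at or under 0.0728 CPM in every library of day 0 and reached 0.31 to 0.47 CPM (WT) and 1.01 to 3.30 CPM (KO) on day 3, at least 1.69-fold and at least 8.13-fold higher (bounds from 3 counts per library of day 0), which its entry through day 3 makes a description.

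Col4a1 and Col4a2 form the common type IV protein of basement membranes. Col4a1 was at 13.4, 25.5 and 213 CPM and then 267, 378 and 276 with the label WT, and at 208, 56.3 and 200 and then 576, 560 and 603 with the label KO. Its values of 1.87 and 1.90 did not pass (adjusted p = 0.0656 and 0.0689), although days 0 and 3 did not overlap, whereas those of Col4a2, 2.00 and 2.08, did (adjusted p = 0.0487 and 0.0481). The KO call of Col4a2 was lost when any single KO library of these days was left out. Its WT call was lost when any but day 0 library 3 was (adjusted p up to 0.146 over the alternatives in each label). These calls therefore do not set Col4a1 and Col4a2 apart. With the replicate number as a block within each label Col4a1 passed in the KO libraries (2.09, adjusted p = 0.0365). The loci lie beside each other and their annotations share 22 bases, chr8:11312805-11312826 on GRCm38.p6, shown on the plus strand because reads there could belong to either gene.
Col4a1 and Col4a2 overlap: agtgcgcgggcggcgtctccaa
Col4a5, a chain of the kidney and skin basement membranes, was at 1.48, 1.08 and 4 CPM on day 0 and at 18.1, 19.1 and 20.1 on day 3 with the label WT, and rose by 3.11 (SE 0.767, adjusted p = 0.00418). With the label KO it was at 2.50, 0.923 and 1.31 CPM and then 22.0, 25.8 and 37.6, a rise of 4.16 (SE 0.805, adjusted p = 0.0012). Its neighbour Col4a6 stayed at or under 1.17 CPM and was not called.

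In the short-chain network, Col8a1 was at 3.30, 10.4 and 101 CPM and then 137, 179 and 128 with the label WT (1.95, adjusted p = 0.0964), and at 71.6, 19.5 and 88.2 and then 378, 447 and 471 with the label KO, where it rose by 2.85 (adjusted p = 0.0292). Col8a2, which pairs with Col8a1 in type VIII networks, was at 0 counts in all 3 WT libraries of day 0 and at 2.06, 4.65 and 4.26 CPM on day 3, at least 15.8-fold higher (adjusted p = 0.000333). In the KO libraries it was at 0.428, 0.154 and 0 CPM on day 0 and at 27.5, 32.9 and 5.66 on day 3, a rise of 6.76 (SE 0.914, adjusted p = 0.000171). Col10a1, the chain that marks cartilage cells about to be replaced by bone, was near 0 on day 0 and reached 1.5, 2.29 and 0.954 CPM (WT) and 2.86, 2.26 and 0.736 CPM (KO) on day 3, at least 6.84-fold and at least 8.84-fold higher. Col10a1 lies inside Nt5dc1 on the opposite strand, and with the strand of counting not given in the sources used here, its counts are uncertain. Col8a2 and Col10a1 passed the filter on low counts only through the day 3 libraries, in which they are high, so their rises are descriptions.

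The fibril-associated chains did not move as 1 group. Col12a1, which coats type I fibrils, was at 2.64, 31.2 and 181 CPM and then 469, 447 and 452 with the label WT (2.67, adjusted p = 0.0537), and rose by 3.39 (adjusted p = 0.0256) with the label KO, from 116, 30.5 and 158 to 699, 698 and 1794. Col16a1 rose by 3.01 and 3.02 (adjusted p = 0.00586 and 0.00683), from 1.07, 4.88 and 25.2 CPM to 62.7, 102 and 88.1 with the label WT. Its level with the label KO was 29.5, 11.9 and 22.4 CPM on day 0 and 149, 215 and 156 CPM on day 3. Col14a1, a partner of type I fibrils in soft tissue, had the opposite sign: 15.3, 11.3 and 16.7 CPM on day 0 and 2.38, 3.73 and 4.53 on day 3 with the label KO, where it fell by 2.02 on the log2 scale (SE 0.562, adjusted p = 0.0105) without overlap. With the label WT it was at 6.43, 7.20 and 20.6 and then 7.07, 5.59 and 6.28 CPM, and its value of -0.85 was not called (adjusted p = 0.198). Col20a1 fell by 1.16 with the label KO (adjusted p = 0.0313) and had -0.98 with the label WT (adjusted p = 0.0546). Its locus overlaps 9230112E08Rik on the same strand, so its counts are uncertain. Col19a1 (0.28 and -0.50) and Col9a3 (-1.31 and -0.72) were at 6.25 CPM or less and not called.

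Col18a1 and Col15a1 rose with the label WT (2.07, adjusted p = 0.0144, and 1.97, adjusted p = 0.0182). With the label KO their values were 1.38 (adjusted p = 0.0838) and 1.19 (adjusted p = 0.126, or 0.0315 with the replicate number as a block within each label), and the difference between labels was not called for either. Col18a1, whose cleaved end is known as endostatin, was at 32.2, 10.1 and 49.3 CPM on day 0 and 137, 116 and 131 on day 3 with the label WT, and at 40.8, 35 and 38.4 and then 105, 117 and 75.4 with the label KO. Its locus overlaps Slc19a1 on the opposite strand. Col7a1, the anchoring chain of skin, was at 1.15, 2.55 and 3.50 CPM on day 0 and at 14.9, 14.6 and 13.9 on day 3 with the label WT, and at 3.49, 1.54 and 2.55 and then 14.1, 40.9 and 27.4 with the label KO. It rose by 2.58 (SE 0.574, adjusted p = 0.00212) and 3.44 (SE 0.589, adjusted p = 0.000525), with no overlap in either label. Col28a1 rose with the label KO (2.60, adjusted p = 0.032) and had 1.17 with the label WT (adjusted p = 0.263), while Col23a1, at 1.25 CPM or less in every library, was called in neither. KO day 3 library 3 had 0.453 CPM of Col28a1, against 3.34 and 4.77 in the other two.

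Between day 1 and day 0 few chains were called. With the label WT 1 of 34 rose, Col4a5 (3.15, SE 0.769, adjusted p = 0.0478), where 1.44% of all genes rose. It was at 30.0 and 26.9 CPM in day 1 libraries 1 and 2 but at 2.00 in library 1b, within the range of day 0. Col18a1 had the same arrangement, 267 and 193 CPM against 24.4 in library 1b, and did not pass (2.40, adjusted p = 0.0597), and Col19a1 was at 6.25, 1.08 (library 1b) and 3.45 CPM (1.85, adjusted p = 0.0943). Those 3 chains met the looser rule that the study used (p under 0.05 before adjustment, and a fold over 1.5 or less than 0.66), which 11.2% of all genes met. The number called was 7 without WT day 0 library 3, 3 without library 1b, and 0 when any of day 0 library 1, day 0 library 2, day 1 library 1 and day 1 library 2 was left out, and 0 with the replicate number as a block. No share of all genes was taken under these alternatives. In the libraries labelled KO, 0 of 34 were called by edgeR and 0 by the DESeq2 Wald test. With edgeR, 3 had an unadjusted p under 0.05 (Col10a1, Col11a2 and Col6a4), and 0.0211% of all genes were called. The looser rule took 3 chains and 5.05% of all genes.

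**Figure D4:**
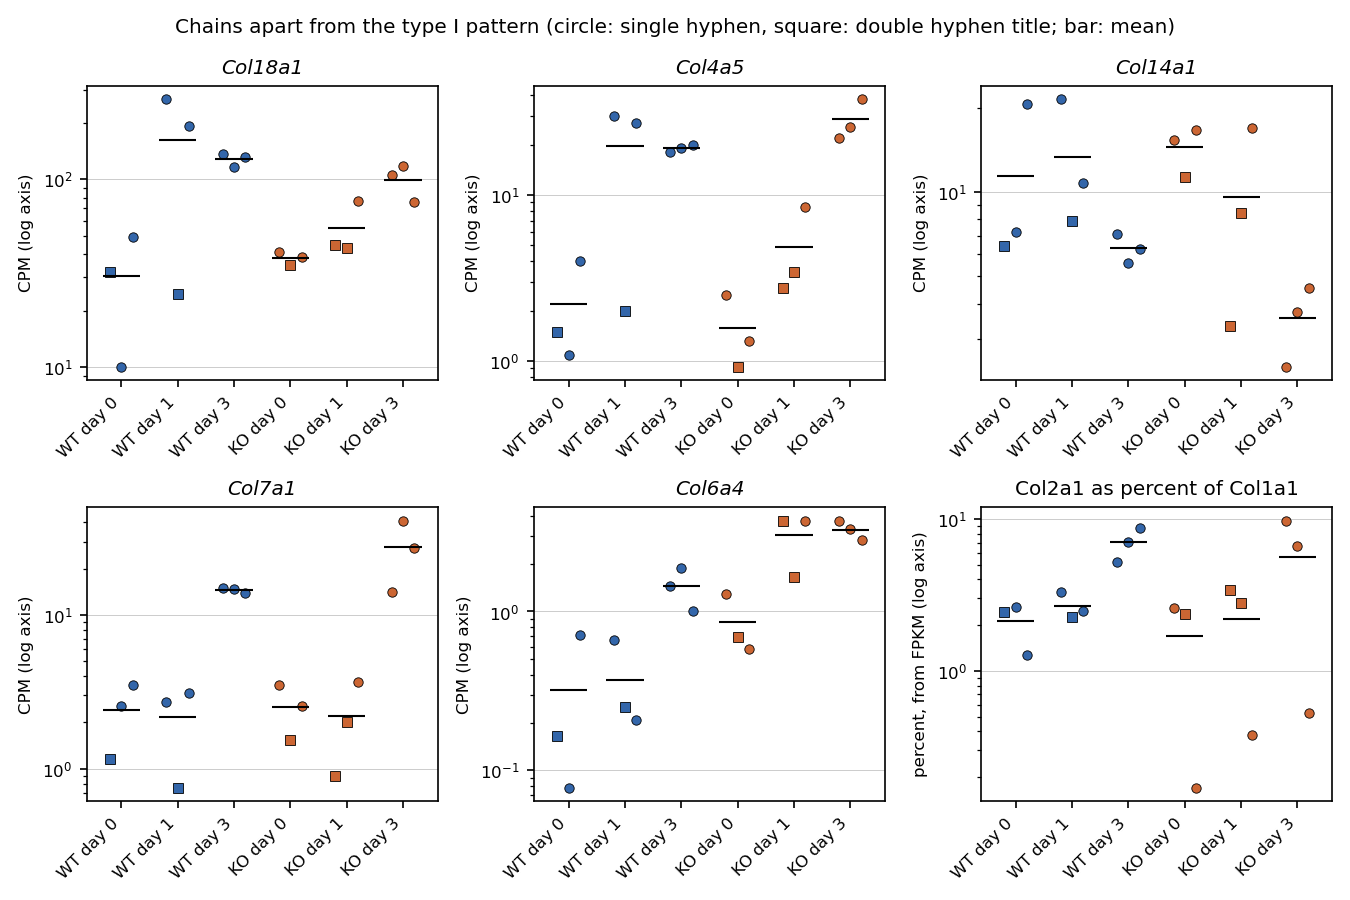
Levels of Col18a1, Col4a5, Col14a1, Col7a1 and Col6a4 in CPM on a log axis, in each library by label and day. The last panel shows Col2a1 as a percent of Col1a1 from FPKM, and bars mark group means. Col7a1 and Col6a4 rose by day 3 in both labels, as did Col1a2. Col18a1 and Col4a5 are high in 2 of 3 WT libraries of day 1, Col14a1 has its lowest group mean in the KO libraries of day 3, and KO libraries numbered 3 have the 3 lowest Col2a1 percentages.

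Between the labels, the fitted level was higher with the label KO for 29 of the 34 chains on day 3, and 0 of them passed the test in the joint fit of all libraries. On that day the 3 KO libraries lay above the 3 WT libraries for 17 of the 34 chains, against 15.9% of all genes, and the median log2 fold change was 0.74 against 0.02 over all genes. In the joint fit of all libraries no chain was called by edgeR (0 of 34, with 3 at an unadjusted p under 0.05, where 0.14% of all genes were called), and the DESeq2 Wald test called 1. With only the 2 groups of day 3 in the fit, edgeR called 2. No share of all genes was taken for DESeq2, for that fit or with libraries left out. The difference of Col1a1 was 0.96 (SE 1.10, adjusted p = 0.782), of Col1a2 1.06 and of Col3a1 1.28. The 3 chains at an unadjusted p under 0.05 were Col8a2 (2.59, SE 0.693, adjusted p = 0.247), Col11a2 (1.54, SE 0.444, adjusted p = 0.253) and Col6a5 (2.18, SE 0.720, adjusted p = 0.328), and they also met the looser rule, which 5.69% of all genes met. Of these, Col8a2 and Col6a5 entered the test only through the day 3 libraries, so their values are descriptions. The counts of 34 on that day also include Col10a1 and Col4a6, which entered in the same way. On day 0, 0 of 34 were called by edgeR and by DESeq2, against 0.119% of all genes for edgeR. The looser rule took 2 chains (Col23a1 and Col8a2), against 3.95%. On day 1, 0 of 34 were called by edgeR and 2 by DESeq2, against 0.112% of all genes for edgeR, and 6 met the looser rule, against 4.7%. Of these 6, Col6a4 (2.96) and Col15a1 (2.99) were higher with the label KO, and Col18a1, Col19a1, Col4a5 and Col4a6 were lower. Without WT day 0 library 3 the day 0 comparison called 5 chains, and without WT day 1 library 1b that of day 1 called 2.

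Averaged over the 3 days, 2 chains were higher in the libraries labelled KO, where 1.14% of all genes were: Col6a4 (1.83, SE 0.354, adjusted p = 0.0234) and Col15a1 (1.61, SE 0.361, adjusted p = 0.0444). Col6a4 was at 0.582 to 1.28 CPM on day 0, 1.65 to 3.72 on day 1 and 2.83 to 3.69 on day 3 with the label KO, and at 0.0774 to 0.715, 0.207 to 0.662 and 1.01 to 1.88 with the label WT. Col15a1, a collagen of the basement membrane zone of vessels and muscle, was at 3.31 to 13.2, 9.68 to 18.9 and 11.9 to 24.8 CPM with the label KO, and at 1.15 to 6.94, 1.08 to 2.35 and 9.23 to 18.2 with the label WT. Neither call held throughout: 14 chains were called when WT day 0 library 3 was left out, 4 when WT day 1 library 1b was, and 0 when WT day 1 library 2, WT day 3 library 1, WT day 3 library 3 or KO day 0 library 1 was. Leaving out any other single library left 1 or 2 calls, and 0 were called without the KO libraries numbered 3 or among single-hyphen titles. The share of all genes was not taken under these alternatives. The looser rule took 10 chains, against 8.73% of all genes. The change from day 0 to day 3 was not shown to differ between the labels for any chain (interaction, 0 of 34 by edgeR and by DESeq2). With edgeR, 0% of all genes were called, and 1 chain, Col23a1, had an unadjusted p under 0.05. Col23a1 also met the looser rule, against 3.39% of all genes.

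The level of the collagen chains moved with that of stromal markers across the libraries. The 10 stromal or fibroblast markers (Pdgfra, Pdgfrb, Thy1, Dcn, Lum, Cxcl12, Lepr, Dpt, Twist1 and Prrx1) summed to 14.8 to 463 CPM on day 0, 40.8 to 176 on day 1 and 714 to 839 on day 3 with the label WT. Those labelled KO summed to 95.1 to 399, 232 to 422 and 1140 to 2010 CPM. Across the 18 libraries the collagen sum spanned a 190-fold range and the marker sum a 136-fold range, while collagen over markers stayed between 9.87 and 30.4 (Pearson r of the log2 sums 0.98 over 18 libraries, which share groups, days and preparation). Of the 9 markers tested, 6 rose in each label, where 23.7% (WT) and 20.2% (KO) of all genes did, Pdgfrb by 2.27 and 2.37 among them, and Cxcl12 rose by 3.14 with the label KO (adjusted p = 0.0274) with 2.22 in the label WT (adjusted p = 0.0816). Dpt was at or under 0.23 CPM throughout. Dcn and Lum of this list also stand in the list of matrix proteins that bind collagen. The part of stromal cells in the collagen values was not tested, and in bulk RNA a greater number of cells of a type and more RNA per cell cannot be told apart.

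**Figure D5:**
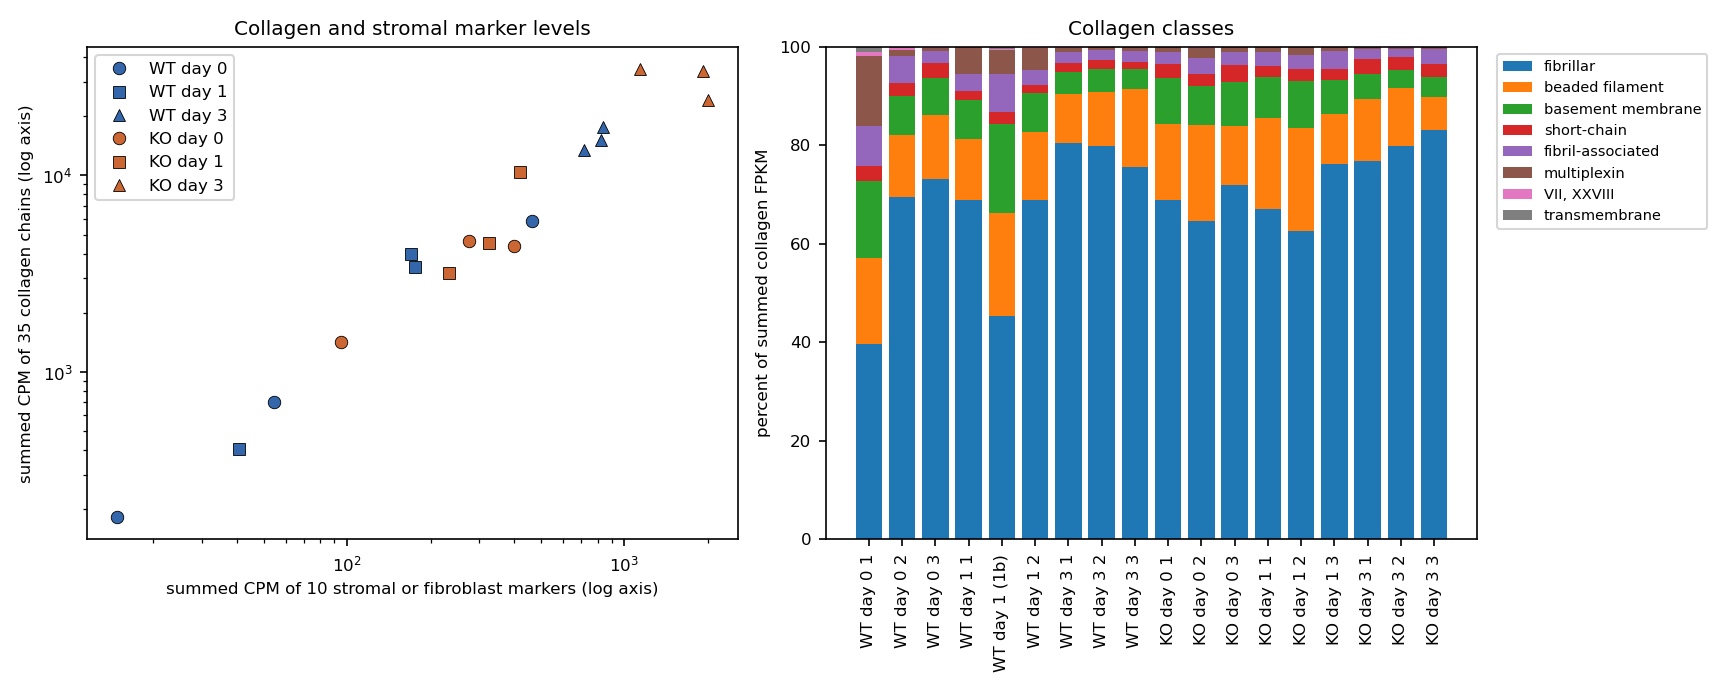
Left, summed CPM of the 35 collagen chains against that of 10 stromal or fibroblast markers, both on log axes, for each of the 18 libraries by label and day. The points run along 1 band from WT day 0 library 1 to the KO libraries of day 3. Right, share of each collagen class in the summed collagen FPKM of each library, from 39.7% fibrillar in WT day 0 library 1 to 83.2% in KO day 3 library 3.

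The counts for other cell types are to be read against the same shares of all genes that rose, 23.7% (WT) and 20.2% (KO), or fell, 26.5% and 22.3%. Of 5 osteoblast markers tested, 4 rose with the label WT and 5 with the label KO, among them Ibsp (2.87 and 6.21) and Alpl, while Bglap was at or under 0.12 CPM and Bglap2 at 0 in all libraries. The 7 osteoblast markers summed to 6.81 to 59.0 CPM on day 0 and 56.8 to 149 on day 3 with the label WT, and to 13.8 to 28.6 and then 82.4 to 440 with the label KO. The 5 smooth muscle or pericyte markers, of which 1 rose in each label, summed to 31.2 to 765 CPM on day 0 and 873 to 2136 on day 3 with the label WT. With the label KO they summed to 235 to 835 and then 2391 to 3977 CPM. Like the collagen sum, the smooth muscle or pericyte sum was lowest in WT day 0 library 1 and highest in KO day 3 library 3. Moving with collagen was thus not particular to the stromal or fibroblast list. None of the 6 endothelial markers rose, and 2 fell with the label WT. Of 3 adipocyte markers tested 1 rose in each label, with Cfd at or under 0.07 CPM, and of 4 megakaryocyte markers 4 fell with the label WT and 3 with the label KO. The part of these cells in the collagen values was not tested.

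The level of Col1a1, Col1a2 and Col3a1, averaged in log2 CPM, was set against every other gene over the 18 libraries. Of 31 other chains, 13 had a Pearson correlation above 0.9 with it, 12 lay between 0.5 and 0.9, and 6 were under 0.5: Col20a1 (-0.53), Col19a1 (-0.27), Col14a1 (-0.26), Col9a3 (-0.18), Col23a1 (-0.17) and Col11a2 (0.05). The 10 genes that are no collagens and followed it most closely were Slc2a10, Ehd2, Loxl2, Lox, Ryk, Parva, Pdgfrb, Msrb3, Kctd15 and Fbn1, at 0.99 or above. Over days 0 and 1 alone the 13 chains above 0.9 stayed at 0.916 to 0.996. The others changed more: Col14a1 had 0.486 and Col20a1 -0.0626, while Col8a2 had 0.166, Col10a1 0.285 and Col28a1 0.0951. Below 0.9 the grouping thus rests in part on the step to day 3. The libraries share the days and groups that set these levels, so the values are descriptions.

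Other genes of the collagen pathway were read from lists chosen for their function, beside the 23.7% (WT) and 20.2% (KO) of all genes that rose and the 26.5% and 22.3% that fell. Of the 19 genes of chain folding and hydroxylation that were tested, 9 rose with the label WT and 13 with the label KO. P4hb, the disulfide isomerase within prolyl hydroxylase, rose by 0.42 (adjusted p = 0.0113) and 0.77 (adjusted p = 0.000348). Serpinh1, the collagen chaperone HSP47, had 2.08 (adjusted p = 0.0653) with the label WT and rose by 2.36 (adjusted p = 0.0481) with the label KO. Ppib and Plod3 rose with the label KO, by 0.43 and 0.62. Of 12 genes of trimming and cross-linking, 8 and 7 rose. Lox, which cross-links collagen, rose by 3.04 (adjusted p = 0.0237) and 3.30 (adjusted p = 0.02), and Pcolce, which speeds removal of the end of the type I chains, by 2.61 and 3.11. Of 22 matrix proteins that bind collagen, 13 and 15 rose, among them Fn1 (3.52 and 3.80) and Sparc (2.55 and 2.90). Of 11 receptors, 7 rose and 1 fell with the label WT, and 8 rose and 1 fell with the label KO. Mrc1, the mannose receptor of macrophages that takes up collagen, fell by 2.09 and by 1.40, while its relative Mrc2, found on stromal cells, rose by 2.54 and 2.63.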

How the data were processed

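From total RNA the authors prepared mRNA libraries with a SMARTER kit, and they deposited 1 table with a count and an FPKM value per gene and library. Per the submitters' processing notes the builds were GRCm38.p4 and mm10 and StringTie was used; the aligner, the counting program and whether it used strand are not given in the sources used here. FPKM as deposited by the authors equalled counts over 1 fixed length per gene and served only to compare levels between genes.

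Counts of the 18 libraries were fitted together as 6 groups with edgeR 4.0.16 in R 4.3.3 (filterByExpr, TMM, glmQLFit and glmQLFTest), with Benjamini-Hochberg adjustment over the 14241 genes tested and calls at an adjusted p under 0.05. The test was checked on simulated counts. CPM used TMM-adjusted library sizes. SE is the standard error of a log2 fold change. Where a group held 3 counts or fewer in every library, a fold is a bound that puts 3 counts there, which covers counting error only, since PCR copies cannot be separated from molecules.

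Described were the 2 most abundant chains of each class, the 10 with the smallest p in each comparison, and set numbers of abundant genes from each list. Plod1, Acan, Dpt, Bglap, Bglap2 and Cfd were named after their values were seen. The members, the lists and the tests were chosen with earlier results of these data known. In the libraries labelled KO the deviations of same-numbered libraries of days 0 and 3 had correlations of 0.13, 0.135 and 0.398 (numbers 1, 2 and 3). Libraries 1 and 2 reached the same level across numbers (0.129 and 0.155), so only number 3 was set apart. The replicate number served as a block among the alternatives, and what it marks is not given.

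Alternatives were DESeq2 size factors, total counts, the DESeq2 1.42.0 Wald test, no filter, a filter of at least 5 CPM in 3 libraries, a fit of the compared groups alone, a block for the replicate number (also within each label), title style as a covariate, both WT day 1 libraries numbered 1 as 1, each library left out, and, chosen after seeing the data, single-hyphen titles only and no KO libraries numbered 3.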

Additional observations from a re-analysis of the deposited data

How the results depend on the processing

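Numbers are collagen chains called of 34. Shares of all genes called are given only for the joint edgeR fit of all libraries. Leaving out 1 library gave 8 to 27 for WT day 3 against day 0 (21 with all libraries), 10 to 19 for KO day 3 against day 0 (26), 0 to 7 for WT day 1 against day 0 (1), 0 to 5 between labels on day 0 (0), 0 to 2 on day 1 (0) and 0 to 14 over the 3 days (2); it gave 0 throughout on day 3, for KO day 1 and for the interaction. With only the groups compared, WT day 3 against day 0 gave 9, the labels on day 3 gave 2 and WT day 1 gave 0. Without the KO libraries numbered 3, KO day 3 against day 0 gave 11 and the labels over the 3 days 0. The looser call of the study gave 1 for the interaction, 3 for KO day 1, 3 for WT day 1, 2, 6 and 3 for the labels on days 0, 1 and 3, and 10 over the 3 days. The DESeq2 Wald test gave 2 and 1 for the labels on days 1 and 3 and 3 for WT day 1. Title style as a covariate gave 1 for the labels on day 1 and 17 over the 3 days. Over the 3 days total counts gave 1, the stricter filter 0 and single-hyphen titles 0. WT day 1 gave 0 with total counts and without a filter, 3 with single-hyphen titles and 3 with both libraries numbered 1 as 1.

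With the replicate number as a block, whole or within each label, WT day 1 gave 0, KO day 3 against day 0 gave 27 and 27, and WT day 3 against day 0 gave 25 and 26; in the WT libraries, where the numbers do not pair, Col1a1, Col4a1, Col5a2, Col8a1 and Col12a1 then passed, and the block across labels ended the WT call of Col24a1. Among the other collagen chain values printed and run with it, the block changed no call beyond those given in the report; genes that are no collagens were not run with it. The interaction of Col1a1 (0.45) was -0.35 with the block, -1.04 with the block within label, -0.30 with title style and -2.16 to 1.00 when 1 library was left out. The WT day 1 value of Col1a1 (0.11) was -0.44 to 2.72 when 1 library was left out, and that of Col19a1 between days 3 and 0 with the label WT (0.28) was -0.023 to 0.86 in the same way. The cause of these changes was not tested. Total counts in place of TMM moved the median of all genes by 0.366 (WT) and 0.292 (KO) between days 3 and 0.

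Col4a6, Col6a4, Col6a5, Col10a1, Col23a1 and Col25a1 stayed under 4 CPM in every library, so their values rest on few counts.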

Other observations

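The KO libraries numbered 3 stood apart for Plod1 and Col2a1 on all 3 days. Plod1, which hydroxylates lysine in collagen chains, was at 109, 115 and 142 CPM in them on days 0, 1 and 3 and at 237 to 380 CPM in the other 15 libraries. Their Col2a1 was the lowest relative to Col1a1 of all 18 libraries, as given above. On day 3 the same library had the lowest KO values of Ibsp (27.0 CPM, against 253 and 235), Fmod (17.8 CPM, against 112 and 116), Col8a2 (5.66 CPM, against 27.5 and 32.9) and Col6a1, and the highest of Col12a1 (1794 CPM, against 699 and 698). These values were picked after the data were seen and carry no test.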
